A study of Mus musculus with 4 samples.

Results

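The 10 genes described here mark the subfields of the mouse hippocampus. They were chosen by symbol, as 3 genes for CA1 (Wfs1, Fibcd1 and Pou3f1), 3 for CA2 (Rgs14, Amigo2 and Pcp4), 1 for CA3 (Bok) and 3 for the dentate gyrus (DG; Prox1, Dsp and C1ql2), out of the 28193 genes of the count table. Each symbol matched 1 gene, and all 10 genes were among the 22338 with enough counts to be tested. The questions were how strongly each subfield was represented in RNA collected from tagged neurons of CA1, and whether these markers differed between mice with and without a second sleep deprivation.

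The libraries came from fosTRAP-seq, in which ribosomes of neurons that were active during a tagging window are pulled down and their RNA is sequenced. Male C57BL/6J mice aged 3 to 5 months had received 2 viruses in dorsal CA1, AAV8 with a 4-hydroxytamoxifen (4-OHT) dependent Cre under the c-Fos promoter, and AAV9 with a Cre-dependent HA-tagged Rpl22, a ribosomal protein, and eYFP under the EF1a promoter. All mice, controls included, were sleep deprived and given 4-OHT on day 0, so the tagged cells of both groups were those of a first sleep deprivation. On day 7 the SD group was sleep deprived for 5 h by gentle handling, the NSD (non-sleep-deprived) group was not, and the microdissected CA1 of 5 mice went into 1 library, giving n = 2 libraries per group. The sample labels name the genotype cFos-Cre:Ribotag and the dorsal hippocampus as tissue, where the study's methods name the viruses and CA1. No library of input RNA was among the 4, so a level here is a level in the pulled-down RNA and not an enrichment over the tissue.

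The hippocampus is built as a chain of fields. Granule cells of the dentate gyrus project through mossy fibres to CA3, CA3 pyramidal cells project to CA1, and CA2 is a narrow field between them with an input and a plasticity of its own. Because the pyramidal cells of each field and the granule cells express their own sets of genes, such transcripts are used to judge which fields contributed to a dissected or pulled-down RNA. In RNA from many cells, however, fewer cells of a type and less RNA per cell cannot be told apart.

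The deposited totals were 153511705 to 195910235 estimated counts per library, with 26179 to 27551 genes counted at least once. Levels are given in CPM, counts scaled to a common library size with the TMM method, and between genes as CPM per kilobase of annotated exon. Transcripts listed as still to be experimentally tested (TEC) held 2103 to 2735 unscaled CPM in the NSD libraries and 1176 to 1568 in the SD libraries, and their part in the differences below was not tested. Markers of other cells were present beside those of neurons. Per kilobase, Camk2a (a kinase of excitatory neurons) had a mean of 454 CPM, Sst (somatostatin, of interneurons) 142, Mbp (a myelin protein) 100 and Gfap (of astrocytes) 29.1. Ttr (of the choroid plexus) had 17.6, with a range of 2.60 in SD library 2 to 43.1 in NSD library 2. C1qa (of microglia) had 10.2, Cldn5 (of endothelial cells) 3.72 and Calb2 (listed here for hilar mossy cells) 2.25. Which cells the Calb2 RNA came from was not tested. With the canonical transcript as length, 4 of the genes just named moved by over 1.5 times. Camk2a moved to 824, Sst to 59.4, Mbp to 451 and Gfap to 57.8. With the longest transcript these 4 were at 802, 28.3, 162 and 52.0. The place of Sst is therefore not resolved. Apart from Sst, the order of the means was the same by each length, with Camk2a highest and Mbp above Gfap. Ranges over the libraries overlapped for some, as for Ttr and Gfap.

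Of the 10 markers, Wfs1, Fibcd1 and Rgs14 were lower in each SD library than in either NSD library, Amigo2 was higher in each, and the groups overlapped for the other 6. Over all genes tested, the groups failed to overlap for 49.5%, with the SD libraries below for 27.5% and above for 22.0%, so 4 of 10 is no larger a share than that of all genes. Over the protein-coding genes alone these shares were 46.5%, 20.0% and 26.5%. A stretch of 200 bases upstream of the canonical start (GENCODE vM39) of each of these 4 genes is shown because they are the members whose groups did not overlap. It was read from GRCm39, moved upstream where needed to leave out any annotated exon (by 173 bases for Rgs14 and 194 for Amigo2), and is written 5′ to 3′ on the strand of the gene. The intervals are chr5:37146550-37146749 (minus strand) for Wfs1, chr2:31736234-31736433 (minus) for Fibcd1, chr13:55517058-55517257 (plus) for Rgs14 and chr15:97145391-97145590 (minus) for Amigo2. Capitals mark matches on either strand to the GC box, the letters GGGCGG.
Wfs1: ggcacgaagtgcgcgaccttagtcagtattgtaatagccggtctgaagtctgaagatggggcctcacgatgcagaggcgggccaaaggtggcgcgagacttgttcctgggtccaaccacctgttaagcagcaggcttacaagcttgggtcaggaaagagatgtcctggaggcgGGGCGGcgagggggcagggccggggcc
Fibcd1: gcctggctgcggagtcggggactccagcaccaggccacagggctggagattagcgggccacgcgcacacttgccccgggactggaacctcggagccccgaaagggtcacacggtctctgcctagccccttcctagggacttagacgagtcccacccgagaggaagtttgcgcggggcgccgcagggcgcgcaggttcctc
Rgs14: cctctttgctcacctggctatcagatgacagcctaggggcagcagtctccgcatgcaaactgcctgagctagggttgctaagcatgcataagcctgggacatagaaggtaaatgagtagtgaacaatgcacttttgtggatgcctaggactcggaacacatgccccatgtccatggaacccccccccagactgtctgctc
Amigo2: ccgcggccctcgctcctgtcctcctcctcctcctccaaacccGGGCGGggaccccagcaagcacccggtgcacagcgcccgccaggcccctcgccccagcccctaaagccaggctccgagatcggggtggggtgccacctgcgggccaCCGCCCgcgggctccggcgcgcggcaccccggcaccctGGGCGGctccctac

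The Wfs1 stretch held 1 GC box and the Amigo2 stretch 3, while those of Fibcd1 and Rgs14 held 0. Their GC contents were 61.5% (Wfs1), 68.5% (Fibcd1), 53.5% (Rgs14) and 78.0% (Amigo2). Each stretch was also searched on both strands for the AP-1 site TGANTCA, to which c-Fos binds with its Jun partners, the cAMP response element TGACGTCA, the TATA box TATAAA and the CCAAT box CCAAT. These letters were in none of the 4. Among the 200-base stretches of 32851 mouse promoters in RefSeq (GRCm38.p6), the GC box was in 31.0% and the AP-1 site in 5.48%. The cAMP response element was in 1.47%, the TATA box in 9.96% and the CCAAT box in 29.3%. These RefSeq stretches were not moved past exons, whereas those of Rgs14 and Amigo2 were, so the shares are no exact match for them. Of the other 6 markers, Dsp alone held a match, 1 CCAAT box, in a stretch moved upstream by 777 bases. These matches describe letters, not bound sites, and a stretch without a match says nothing of the factor.

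Within the libraries, the 3 CA1 markers had the highest levels per kilobase of the 10. Wfs1 encodes wolframin, a membrane protein of the endoplasmic reticulum, and had a mean of 55.1 CPM per kilobase over the 4 libraries, with a range of 42.0 to 66.3. Pou3f1, a POU domain transcription factor, had 44.1 (37.9 to 47.7), and Fibcd1, a receptor of the cell surface that binds acetylated groups, had 37.8 (31.7 to 45.7). The ranges of these 3 overlapped, so their order among themselves is not resolved. Every library of Fibcd1 lay above every library of Rgs14, the next gene, by 3.83-fold on average.

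Rgs14, a regulator of G protein signalling that restrains synaptic plasticity in CA2, had 9.87 CPM per kilobase (8.80 to 11). It stood above Prox1 by 2.75-fold, and its range overlapped with that of no other marker. Prox1, the homeobox factor that sets granule cell identity, followed with 3.59 (3.20 to 4.08), above the remaining CA2 markers. Which cells the Prox1 RNA came from was not tested, and interneuron markers were present in the same libraries. Amigo2, an adhesion protein with leucine-rich repeats, had 2.51 (2.16 to 3.07), Pcp4, a small calmodulin-binding protein, 1.97 (1.80 to 2.17), and Bok, a member of the BCL2 family, 1.83 (1.51 to 2.06). C1ql2, a secreted C1q-like protein of mossy fibre synapses, had 1.30 (1.07 to 1.53). Amigo2 and Pcp4, Pcp4 and Bok, and Bok and C1ql2 overlapped in range. Dsp, the desmosomal protein desmoplakin, was lowest at 0.238 (0.177 to 0.306), below C1ql2 by 5.48-fold.

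**Figure D1:**
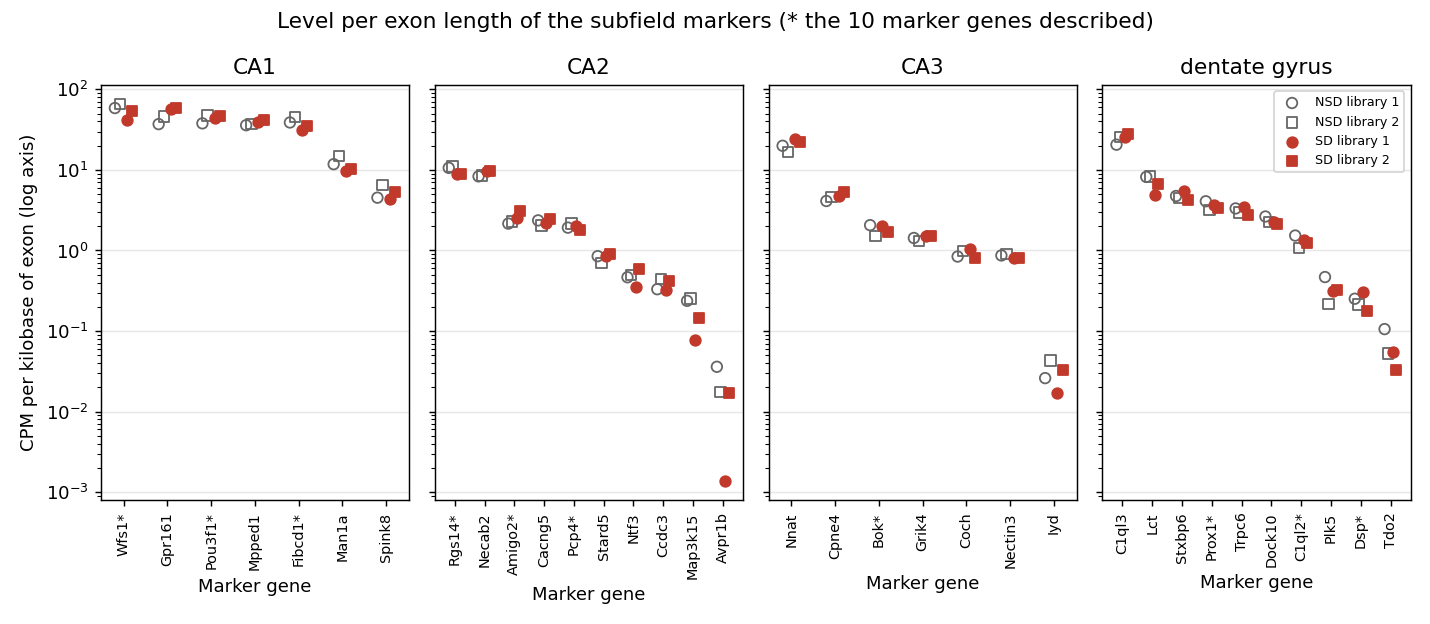
CPM per kilobase of exon (log axis) of the 10 members (asterisks) and of other markers of each subfield, in 1 panel per subfield with 1 point per library (open, NSD; filled red, SD). The CA1 members lie between 31.7 and 66.3, Rgs14 between 8.80 and 11, and the other 6 members between 0.177 and 4.08.

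Placed among all genes tested, Wfs1 was between percentiles 96.7 and 98.4 of CPM per kilobase, Pou3f1 between 96.6 and 97.3 and Fibcd1 between 95.3 and 97.1. Rgs14 was between 82.3 and 85.5 and Prox1 between 65.2 and 69.9. The remaining 5 were nearer to the middle or below it, from Amigo2 between 57.9 and 64.0 to Dsp between 21.5 and 30.1. The CA2, CA3 and dentate members were therefore all counted in the pulled-down RNA, at lower levels per kilobase than the CA1 members. Within single libraries Wfs1 exceeded Prox1 per kilobase by 11.5- to 20.7-fold and C1ql2 by 31.1- to 62.0-fold. The members' levels depend on the length used, most of all for Wfs1, whose mean was 77.4 with the longest transcript and 96.7 with the canonical one.

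Wfs1 (ENSMUSG00000039474, chr5:37123448-37146549, minus strand, 8 exons) was at 390 and 441 CPM in NSD libraries 1 and 2 and at 279 and 355 in SD libraries 1 and 2. The SD libraries were both lower and SD library 1 was the lowest, and the groups did not overlap. Group means were 415 ± 35.8 (standard deviation, n = 2) for NSD and 317 ± 53.6 (n = 2) for SD, a log2 fold change of -0.39 (standard error 0.12, 95% interval -0.67 to -0.11) with an adjusted p of 0.124 in the edgeR quasi-likelihood test. The difference did not pass. With the replicate number, which the labels equate with a batch, as a block in edgeR, Wfs1 fell by 0.40 on the log2 scale (adjusted p = 0.00246), and DESeq2 without a block gave -0.37 (adjusted p = 0.0201). Within replicate 1 the SD library differed from the NSD library by -0.48 and within replicate 2 by -0.31. The estimate was -0.23 without SD library 1 and -0.56 without SD library 2, where edgeR called it with an adjusted p of 0.00306.

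Fibcd1 (ENSMUSG00000026841, chr2:31703302-31736017, minus strand, 7 exons) showed the same arrangement at 185 and 217 CPM in the NSD pools and 150 and 166 in the SD pools. Both SD libraries were below both NSD libraries. The means were 201 ± 23.0 (n = 2) and 158 ± 10.7 (n = 2), with a log2 fold change of -0.35 (standard error 0.096, 95% interval -0.57 to -0.13) and an adjusted p of 0.0909 in edgeR, which did not pass. The gene fell by 0.34 with the replicate block (edgeR, adjusted p = 0.00286), and DESeq2 gave -0.32 (adjusted p = 0.0138). Within replicates the differences were -0.30 and -0.39. Leaving out NSD library 2 moved the estimate to -0.22, and leaving out SD library 2 gave -0.40, with an adjusted p of 0.0248 in edgeR. Wfs1 and Fibcd1 are also in a list that the study chose on these same libraries, so their differences are not independent of it.

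Pou3f1 (ENSMUSG00000090125, chr4:124550600-124554448, plus strand, 1 exon) had overlapping groups, unlike the other CA1 members. It was at 146 and 184 CPM in the NSD pools and at 170 and 179 in the SD pools, so the SD libraries lay between the NSD libraries. The log2 fold change was 0.08 (standard error 0.11, 95% interval -0.16 to 0.33; edgeR adjusted p = 0.764), and it was -0.045 without NSD library 1. As counts of 1 library divided by counts of the same library, in which the scaling cancels, Wfs1 over Pou3f1 was 2.67 and 2.40 in the NSD pools and 1.65 and 1.98 in the SD pools. Fibcd1 over Pou3f1 was 1.27 and 1.18 in NSD and 0.886 and 0.923 in SD. Both ratios were lower in both SD libraries, whereas Wfs1 over Fibcd1, at 2.11 and 2.03 in NSD and 1.86 and 2.14 in SD, overlapped. These ratios were not tested.

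**Figure D2:**
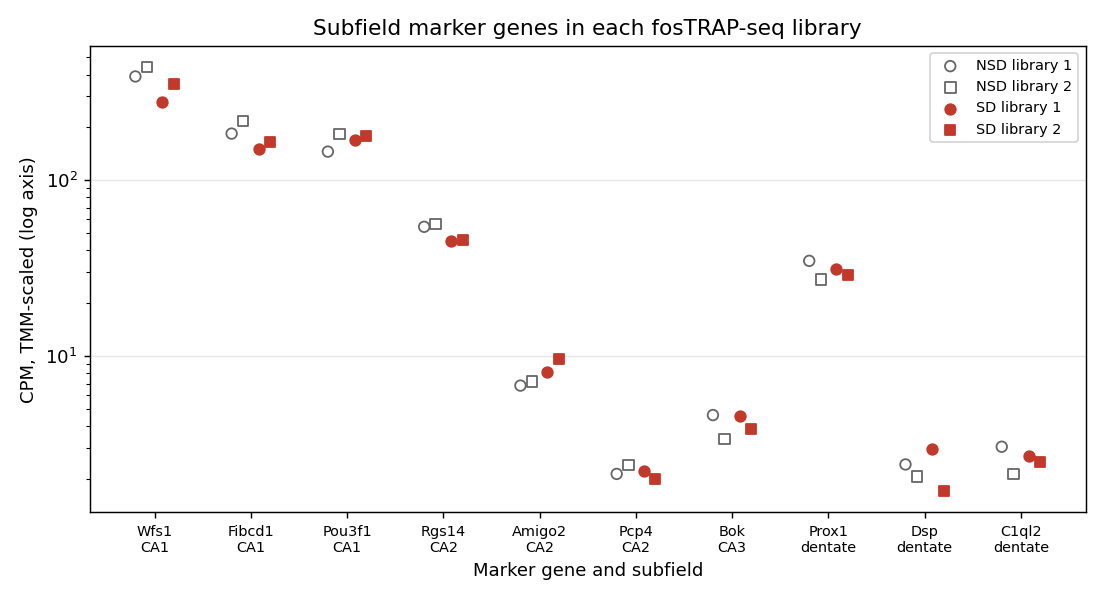
TMM-scaled CPM (log axis) of each of the 10 markers, with 1 point per library (open, NSD; filled red, SD; circles, replicate 1; squares, replicate 2). Wfs1, Fibcd1 and Rgs14 have both SD points below both NSD points (for Wfs1 279 and 355 against 390 and 441), Amigo2 has them above, and the other 6 overlap.

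Rgs14 (ENSMUSG00000052087, chr13:55517545-55532500, plus strand, 15 exons) had the smallest spread within groups of the 4 markers without overlap, relative to its difference. It was at 54.5 and 56.7 CPM in the NSD pools and at 45.2 and 46.2 in the SD pools, with both SD libraries lower. The means of 55.6 ± 1.54 (n = 2) and 45.7 ± 0.686 (n = 2) gave a log2 fold change of -0.28 (standard error 0.066, 95% interval -0.43 to -0.13) and an adjusted p of 0.0583 in edgeR, just above the threshold of 0.05. With the replicate block Rgs14 fell by 0.28 (edgeR, adjusted p = 0.00565). DESeq2 gave -0.26 with an adjusted p of 0.0166, but a change just under the 1.2-fold that a call needed. Within replicates the differences were -0.27 and -0.30, and with each library left out the estimate stayed between -0.29 and -0.26.

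Amigo2 (ENSMUSG00000048218, chr15:97142006-97145168, minus strand, 2 exons), also a CA2 marker, had the opposite sign. It was at 6.82 and 7.20 CPM in the NSD pools and at 8.10 and 9.70 in the SD pools, and both SD libraries were higher. The log2 fold change of 0.34 (standard error 0.13, 95% interval 0.05 to 0.64) did not pass in edgeR (adjusted p = 0.191), with the replicate block (adjusted p = 0.0537) or in DESeq2 (adjusted p = 0.107). Without SD library 2 it was 0.22. Amigo2 has 58 exon bases in common with Pced1b on the opposite strand, a gene with 39.0% of its count, and whether the counting used the strand is not given in the sources used here. The count of Rgs14 over that of Amigo2 was 7.99 and 7.87 in the NSD pools and 5.58 and 4.76 in the SD pools.

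Pcp4 (ENSMUSG00000090223, chr16:96268806-96326993, plus strand, 4 exons) was at 2.15 and 2.42 CPM in the NSD pools and at 2.22 and 2.01 in the SD pools. The groups overlapped, with an estimate of -0.11 on the log2 scale and an interval of -0.59 to 0.37 (adjusted p = 0.853 in edgeR). The gene had 356 to 402 counts per library. The 3 CA2 markers thus gave 1 value below, 1 above and 1 near no difference. Bok (ENSMUSG00000026278, chr1:93613382-93623486, plus strand, 5 exons), the CA3 marker, was at 4.64 and 3.39 CPM in the NSD pools and at 4.58 and 3.86 in the SD pools. Its SD libraries lay between the NSD libraries, and the log2 fold change was 0.07 (-0.38 to 0.52; edgeR adjusted p = 0.901).

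The dentate markers overlapped between the groups, and none passed in edgeR, with the block or in DESeq2. Prox1 (ENSMUSG00000010175, chr1:189850232-189902911, minus strand, 5 exons) was at 34.9 and 27.3 CPM in the NSD pools and at 31.2 and 29.2 in the SD pools. The SD libraries lay between the NSD libraries, with means of 31.1 ± 5.35 (n = 2) and 30.2 ± 1.45 (n = 2) and a log2 fold change of -0.04 (standard error 0.11, 95% interval -0.30 to 0.22; edgeR adjusted p = 0.894). Exons of Prox1 overlap those of the antisense gene Prox1os, which had 0.978% of its count. C1ql2 (ENSMUSG00000036907, chr1:120268312-120270903, plus strand, 2 exons) was at 3.06 and 2.14 CPM in NSD and 2.7 and 2.51 in SD, again with the SD libraries between, and its log2 fold change of 0.00061 had an interval of -0.52 to 0.52 (edgeR adjusted p = 0.9995). Prox1 and C1ql2 kept a nearly fixed ratio, with 11.4 to 12.8 counts of Prox1 for each count of C1ql2 in the 4 libraries. Dsp (ENSMUSG00000054889, chr13:38335270-38382553, plus strand, 24 exons) was at 2.43 and 2.08 CPM in NSD and 2.96 and 1.71 in SD. Its highest and lowest library were both SD libraries, at 535 and 324 counts, and its log2 fold change of 0.05 had the widest interval of the 10, -0.59 to 0.70 (edgeR adjusted p = 0.952).

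**Figure D3:**
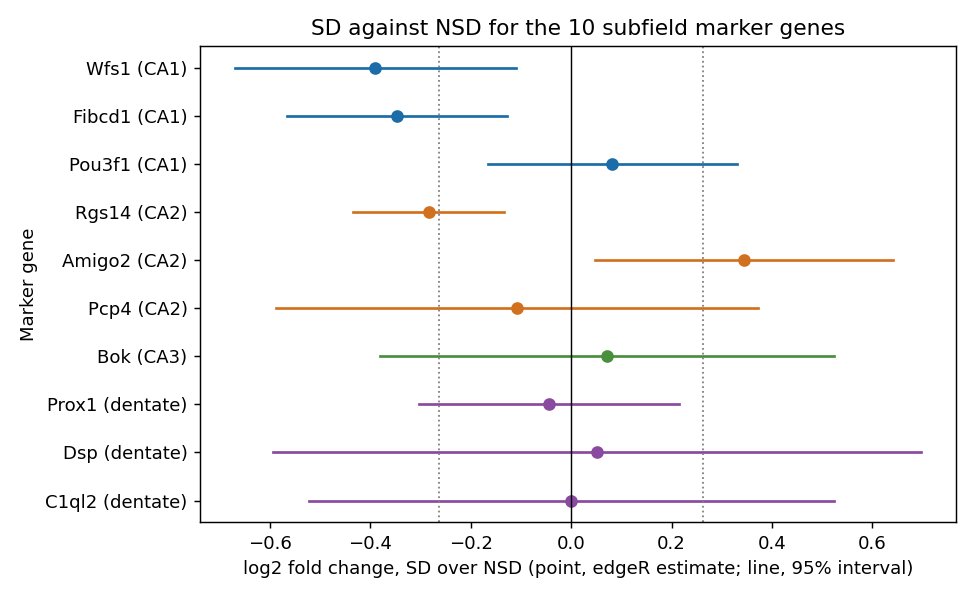
Log2 fold change, SD over NSD, of each marker from edgeR without a block (point) with its 95% interval (line), and dotted lines at a 1.2-fold change. The intervals of Wfs1, Fibcd1 and Rgs14 lie below 0 and that of Amigo2 above 0, before any adjustment for the number of genes, and the interval of Dsp from -0.59 to 0.70 is the widest.

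In all, edgeR without a block called 0 of the 10 markers, where it called 3.10% of all genes tested, 0.770% higher and 2.33% lower in SD. Without SD library 2 it called 2, Wfs1 and Fibcd1, against 3.47% of all genes lower. At an unadjusted p under 0.05 it found 4 (Wfs1, Fibcd1, Rgs14 and Amigo2), against 19.1% of all genes and 14.6% of the protein-coding genes. With the replicate block edgeR called 3, all lower in SD (Wfs1, Fibcd1 and Rgs14), against 11.5% of all genes in either direction, 2.99% higher and 8.47% lower. DESeq2 called 2, Wfs1 and Fibcd1, against 8.81% in either direction and 5.80% lower. All 10 markers are protein-coding, and the balance over the 15551 protein-coding genes tested ran the other way. EdgeR without a block called 0.952% of them higher and 0.540% lower, the replicate block 3.77% and 3.29%, and DESeq2 3.92% and 1.79%. Log2 fold changes had a median of -0.35 over the 3 CA1 markers, -0.11 over the CA2 markers, 0.07 for Bok and 0.00061 over the dentate markers, beside -0.016 over all genes tested and 0.018 over the protein-coding genes.

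**Figure D4:**
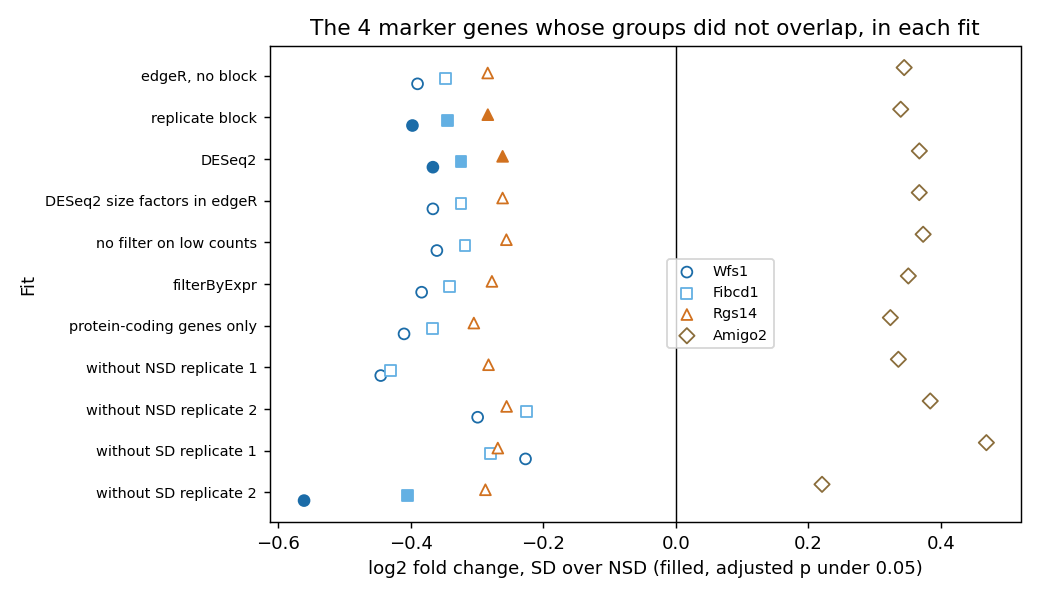
Log2 fold change, SD over NSD, of the 4 markers whose groups did not overlap, in each fit (vertical axis), with filled symbols for an adjusted p under 0.05. Wfs1, Fibcd1 and Rgs14 are below 0 and Amigo2 is above 0 in all fits shown, Wfs1 ranges from -0.56 without SD library 2 to -0.23 without SD library 1, and Rgs14 stays between -0.30 and -0.26.

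Other markers of the same subfields gave a mixed picture within each field. Beside the counts below, 19.1% of all genes tested and 14.6% of the protein-coding genes had an unadjusted p under 0.05 in edgeR. The replicate block called 11.5% of all genes in either direction and DESeq2 8.81%. None of the 4 other CA1 markers was called by edgeR, 2 had an unadjusted p under 0.05, and both the replicate block and DESeq2 called Gpr161 higher and Man1a lower. By annotated exon, their mean levels ran from 5.17 (Spink8, below every library of Rgs14) and 11.7 (Man1a) to 49.98 (Gpr161) CPM per kilobase. Spink8 had 1203 exon bases against 778 in its canonical transcript, and Man1a 11637 against 5138. Both levels would be higher by the canonical transcript, so their places beside Rgs14 depend on the length. Gpr161, an orphan receptor, was at 258 and 322 CPM in NSD and at 397 and 415 in SD. The groups did not overlap, and differed by 0.49 on the log2 scale (adjusted p = 0.0554 in edgeR, and 0.000915 with the replicate block). Man1a, and below Map3k15, Lct, Neurod6 and Kl, are named because of their calls, after their values were seen. Man1a, a mannosidase of the Golgi, was at 137 and 173 CPM in NSD and 114 and 119 in SD (log2 fold change -0.41, edgeR adjusted p = 0.0750, with the block 0.00194). Over the CA1 members and other CA1 markers together, the groups did not overlap for 5 of 7, with 3 lower and 2 higher in SD, beside 49.5% of all genes tested (27.5% lower and 22.0% higher), and their log2 fold changes had a median of -0.18.

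**Figure D5:**
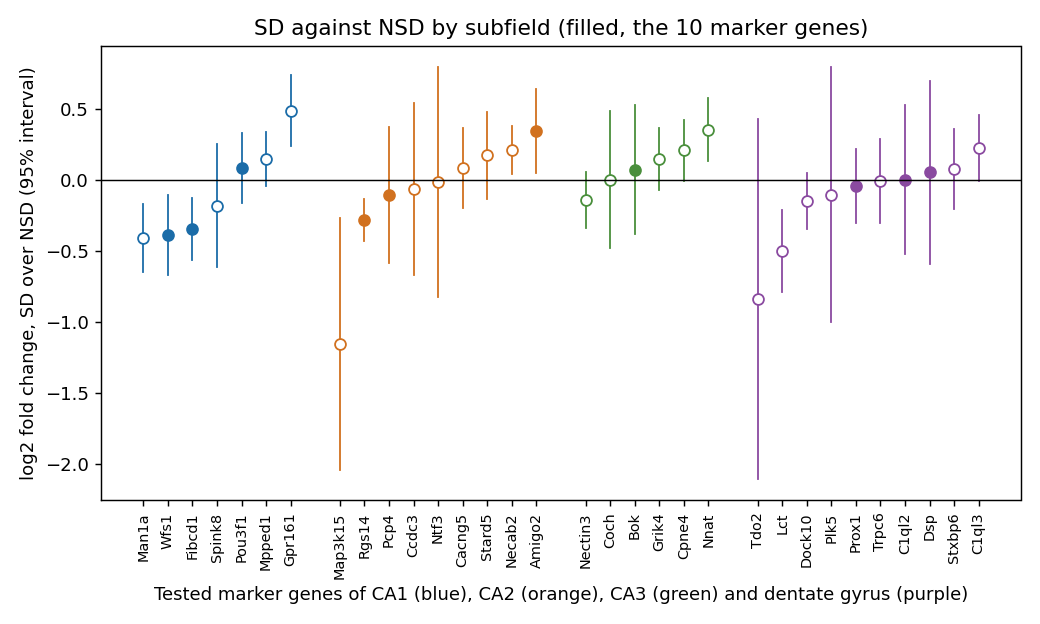
Log2 fold change, SD over NSD, of the members (filled) and the other markers (open) of each subfield, with 1 point per gene tested and its 95% interval as a line, ordered within each field. The medians over members and other markers together are -0.18 for CA1, -0.018 for CA2, 0.11 for CA3 and -0.028 for the dentate gyrus, and each field has points on both sides of 0.

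Of the 7 other CA2 markers 6 were tested, none was called by edgeR, and 2 had an unadjusted p under 0.05. Necab2, a calcium-binding protein and the highest of them at 9.12 CPM per kilobase, was at 23.2 and 23.9 CPM in NSD and at 27.4 and 27.2 in SD, above without overlap (log2 fold change 0.21, edgeR adjusted p = 0.161). DESeq2 called 0 and the block 1, Map3k15 (log2 fold change -1.16, edgeR adjusted p = 0.145 and 0.0325 with the block), a kinase gene at 0.332 to 1.10 CPM with 603 exon bases in common with the far more abundant Pdha1 on the opposite strand. Of the 6 other CA3 markers 5 were tested and none was called by edgeR, with 1 at an unadjusted p under 0.05. That gene was Nnat, an imprinted proteolipid and the highest of them at 20.8 CPM per kilobase, at 36.5 and 30.4 CPM in NSD and 44.4 and 41.1 in SD (log2 fold change 0.35, edgeR adjusted p = 0.0879, and 0.00269 with the block), and both the block and DESeq2 called it higher.

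Of the 7 other dentate granule markers none was called by edgeR and 1 had an unadjusted p under 0.05. C1ql3, from the same family as C1ql2 and the highest of them at 25.0 CPM per kilobase, was at 55.6 and 68.9 CPM in NSD and 70.1 and 75.0 in SD (log2 fold change 0.22, edgeR adjusted p = 0.284). Lct, which encodes lactase, was at 52.5 and 53.3 in NSD and 31.7 and 43.0 in SD (-0.50, edgeR adjusted p = 0.0704, and 0.00122 with the block), and both the block and DESeq2 called it lower. Among these highest genes, Nnat and C1ql3 stood above Rgs14 per kilobase in every library. The order seen among the 10 members by field therefore did not extend to all the listed markers. Nnat and C1ql3 also stood above Man1a and Spink8 by their means with these exon lengths. With the canonical transcript Nnat was at 27.4 and C1ql3 at 16.0, and Man1a would be higher than by exon, so their order beside Man1a is not resolved.

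Markers of other cells are given beside these differences, summed per library in the order NSD 1, NSD 2, SD 1 and SD 2, and their part in them was not tested. Glutamatergic neuron markers summed to 5892, 6299, 5882 and 6292 CPM, and GABAergic markers to 870, 830, 850 and 772. Calb2 and Drd2, listed here for hilar mossy cells, summed to 7.0, 6.68, 6.84 and 6.82, and which cells they came from was not tested. Astrocyte markers summed to 480, 435, 486 and 449, oligodendrocyte markers to 1183, 975.4, 1112 and 1007, and microglia markers to 72.8, 57.6, 72.4 and 55.3. EdgeR called 0 of the genes of these 6 lists, with 1 glutamatergic and 2 GABAergic genes at an unadjusted p under 0.05. The replicate block called Neurod6 and Sst lower, and DESeq2 Neurod6 lower. Endothelial markers were lower in SD, at 37.0, 51.3, 30.3 and 20.1, with 0 of 6 called by edgeR. At an unadjusted p under 0.05 in edgeR there were 5, against 19.1% of all genes tested. The block called 5, all lower, against 8.47% of all genes lower, and DESeq2 called 4, all lower, against 5.80%. Over the protein-coding genes these shares were 14.6%, 3.29% and 1.79%. Choroid plexus markers summed to 60.3, 131, 62.9 and 39.8. Kl (klotho) among them was at 45.2, 57.4, 35.4 and 34.9 CPM and fell in edgeR by 0.54 (adjusted p = 0.0405). Ttr was at 14.2, 69.8, 25.6 and 4.21, so within replicate 1 it was higher in SD, where Kl was lower. Which cells the Kl RNA came from was not tested.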

How the data were processed

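The authors trimmed and aligned the reads with STAR to mm39 (GRCm39) and deposited estimated counts for each gene of Ensembl release 110, which Partek assigned by expectation-maximization and did not normalize. The library kit was stranded. The labels' processing notes name Partek and mm39. Here the estimated counts, 55.6% of genes with a value that was not whole, were rounded. Genes over 5 counts in all 4 libraries were tested in edgeR 4.0.16 (R 4.3.3; TMM, quasi-likelihood, condition as the only term), with Benjamini-Hochberg adjustment over all 22338 genes. Called genes had an adjusted p below 0.05 with a change of more than 1.2-fold. Column totals of 153511705 to 195910235 make counting error small for all but rare genes. The p-values measure a spread between pools, of which there were 2 per group. In edgeR the spread of each gene was drawn towards that of all genes, with a prior of 6.38 degrees of freedom in the main fit. The replicate block left less of a gene's own spread to go on.

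In the labels the batch of a library equals its replicate number, which pairs NSD with SD. Deviations from the group means of libraries with the same number had a correlation of 0.178 across genes. Alternatives were that block, DESeq2 1.42.0, its size factors in edgeR, no count filter, filterByExpr, protein-coding genes only, no fold threshold, the longest transcript as length, and each library left out. The canonical transcript as length was added after seeing the data. The fits were tested on simulated counts. Libraries of a group differed by more than sampling noise.

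Exons came from GENCODE vM39 on GRCm39, a newer annotation than the one counted, and exon lengths were limited to each gene's span in the table. Sequence was read from GRCm39, and promoter shares came from RefSeq windows of 200 bases. The members and all marker lists were chosen with earlier results of these data known. A few genes were left out of these lists altogether and are not reported here, so the number of genes given for a list is of those that remain. By the rule for named genes, these were all 10 members, the called genes and the highest per kilobase of each other subfield list, and the highest gene of each cell type list. Man1a, Map3k15, Lct, Neurod6 and Kl lie outside this rule and were named for their calls, after their values were seen. Genes with a pattern like a member's were not sought, since 4 libraries are too few.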

Additional observations from a re-analysis of the deposited data

How the results depend on the processing

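Over all genes, the main edgeR comparison called 172 higher and 520 lower in SD and 0 of the 10 markers. The replicate block called 668, 1891 and 3, and DESeq2 called 671, 1296 and 2. Without a count filter edgeR called 50 higher and 80 lower, and with protein-coding genes alone 51 and 39. With filterByExpr it called 1 and 0, with 1594 higher and 2816 lower at an unadjusted p under 0.05. In these 3 none of the markers was called. Leaving out each library in turn gave 124 to 308 higher, 78 to 1955 lower and 0 to 2 markers, with a lone library assumed to vary like the other group.

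The block changed the calls of Wfs1, Fibcd1 and Rgs14 and of no other of the 10 members, while calls it changed among the other lists are given with them. With a library left out, the log2 fold change took both signs for Pou3f1 (-0.045 to 0.26), Bok (-0.14 to 0.35), Prox1 (-0.21 to 0.17), Dsp (-0.39 to 0.40) and C1ql2 (-0.24 to 0.31), and that of C1ql2 was -0.023 with protein-coding genes alone. The cause was not tested. Wfs1, Fibcd1, Rgs14 and Pcp4 were below 0 and Amigo2 above 0 under every alternative run. With the longest transcript as length, Pcp4 and Amigo2 changed places, and the canonical transcript kept the order. With 2 pools per group, the intervals of the rarer markers reach changes of over 1.2-fold in both directions.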

Other observations

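Neurod6, a transcription factor of pyramidal neurons and one of the glutamatergic markers, was noticed after its values were seen. It was at 123 and 152 CPM in the NSD pools and at 103 and 113 in the SD pools, without overlap. The log2 fold change was -0.35 (edgeR adjusted p = 0.112), and with the replicate block the adjusted p was 0.0025.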
